A study of Mus musculus with 9 samples.

Results

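The interferon-stimulated and antigen presentation genes examined here are 47 named genes, taken as a fixed list by symbol and sorted by role. All 47 were found among the 35675 genes summed from the deposited transcript tables, all had counts, and all were among the 15714 genes that passed the filter on low counts. Polyadenylated RNA was measured in MEFs, fibroblasts grown from mouse embryos. All groups shared the Dmdmdx genotype, a mutated dystrophin gene that serves as a model of Duchenne muscular dystrophy. The groups were MEFs with MyoD and F/R/C (an added treatment whose letters the labels do not spell out; called F/R/C libraries here), MEFs with MyoD alone and MEFs with no treatment, with 3 libraries in each. MyoD is the transcription factor encoded by Myod1 that can turn fibroblasts toward skeletal muscle. Age, time of treatment and how MyoD was delivered are not given in the labels, and neither is it stated that replicates were separate cultures. P-values therefore measure only the spread between these libraries, which may be technical.

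Type I interferons bind a receptor whose kinases, JAK1 and TYK2, activate transcription factors of the STAT family. A complex that holds STAT2 and IRF9 then binds the interferon-stimulated response element (ISRE) of many target promoters, while interferon gamma acts mainly through the gamma-activated site (GAS). The targets hold antiviral enzymes, RNA sensors that feed back into the pathway, GTPases that attack the vacuoles of parasites and bacteria, and the machinery that loads peptides on MHC class I for display to T cells. Fibroblasts express many of these genes at a low constant level without added interferon.

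The sequences just upstream of 5 members show the ISRE core in genes of opposite behaviour in these data. Each line gives the 150 bases before the transcript start on the gene's own strand, from RefSeq on GRCm38.p6. Capitals mark this core, searched as 2 copies of GAAA with any 2 bases between them, on either strand. Isg15 and Ifit1 were among the members with the largest decreases in MyoD F/R/C libraries, Irgm1 was lower there, and Igtp and Irgm2 were higher.
Isg15, chr4:156200819-156200968, minus strand: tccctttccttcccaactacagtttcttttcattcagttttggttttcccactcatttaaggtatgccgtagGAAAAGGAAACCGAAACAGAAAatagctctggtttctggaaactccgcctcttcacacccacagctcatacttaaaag
Ifit1, chr19:34640739-34640888, plus strand: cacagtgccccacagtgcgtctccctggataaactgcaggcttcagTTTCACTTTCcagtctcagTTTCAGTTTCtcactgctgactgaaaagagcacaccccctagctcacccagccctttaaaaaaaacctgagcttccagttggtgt
Irgm1, chr11:48871421-48871570, minus strand: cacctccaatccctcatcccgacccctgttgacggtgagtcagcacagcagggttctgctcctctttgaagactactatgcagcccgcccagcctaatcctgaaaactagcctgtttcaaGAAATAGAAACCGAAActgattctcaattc
Igtp, chr11:58199406-58199555, plus strand: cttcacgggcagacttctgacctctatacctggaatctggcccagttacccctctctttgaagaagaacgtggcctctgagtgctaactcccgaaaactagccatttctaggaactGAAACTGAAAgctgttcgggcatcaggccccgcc
Irgm2, chr11:58214827-58214976, plus strand: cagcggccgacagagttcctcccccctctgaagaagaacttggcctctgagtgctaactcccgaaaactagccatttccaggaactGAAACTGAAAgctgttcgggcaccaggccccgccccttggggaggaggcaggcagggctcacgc
Isg15 held 3 overlapping copies of the core, and Irgm1 held 2 overlapping copies. Igtp and Irgm2 held the same 10 letters in nearly the same surroundings: of 100 bases compared at a shift of 30 bases, 94 were equal. The promoter table held 36 of the 47 members. Within 250 bases before the start, 15 of these 36 (41.7%) held the ISRE core, against 3.46% of the 27025 genes in the table. The GAS core TTCNNNGAA, also searched on both strands, was in 9 of 36 (25.0%), against 8.13% of all genes. All 6 of the GTPases in the table held the ISRE core, and 3 of the 6 also held TTCNNNGAA. The groups of signalling and transcription factors and of antigen presentation genes held the ISRE core in 1 of 4 and 1 of 6. In Igtp the cores began 34 bases before the start for the ISRE and 45 bases before it for TTCNNNGAA, where N is any base; in Irgm2 they began 64 and 75 bases before the start. These matches describe letters in a window, and binding was not measured. The members not in the table were Usp18, Ifi27, Parp14, Mx2, Mx1, Zbp1, Iigp1, Oas2, Parp9, Rtp4 and Dhx58.

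Total estimated counts ranged over 21112100 to 24291100 per library. The floor taken for a gene with no counts, 3 counts, was 0.113 to 0.144 CPM (counts-per-million). Floors of this kind cover counting error only. Myod1 had 269, 281 and 330 CPM in F/R/C libraries, 7.21, 9.03 and 19.0 CPM in MyoD libraries and 2.605, 0.403 and 5.998 CPM in MEF libraries. These counts do not separate an introduced copy from the endogenous gene. MEF replicate 3 stood apart from its label. The summed level of 24 sarcomere genes was 774 CPM there, against 9.21 and 11.2 CPM in MEF replicates 1 and 2. It was 47825 to 68976 CPM in F/R/C and 1614 to 4782 CPM in MyoD libraries. The 15 fibroblast markers summed to 6538 to 9954 CPM in F/R/C, 12529 to 38583 CPM in MyoD and 26373 to 89430 CPM in MEF libraries. By edgeR, 5 of 15 were lower in F/R/C than in MEF, where 18.1% of all genes tested were. Against MyoD 3 of 15 were lower, where 16.1% of all genes were. Mitochondrial genes took 1.54% to 3.07% of counts in F/R/C, 1.15% to 1.22% in MyoD and 0.817% to 1.09% in MEF libraries. The part of these differences in the results on the 47 genes was not tested. In bulk RNA, fewer expressing cells and less RNA per cell cannot be told apart.

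Most of the 47 genes were lower in F/R/C libraries than in both other groups. Against MEF, 31 fell, 2 rose and 14 did not pass the test, where 18.1% of all genes tested fell and 19.5% rose. Against MyoD libraries, 35 fell, 2 rose and 10 did not pass, where 16.1% of all genes fell and 17.8% rose. The same shares of all genes apply to the counts by role given below. The median log2 fold change of the 47 genes was -2.11 against MEF and -2.58 against MyoD, where the medians over all genes tested were -0.04 and -0.02. In both comparisons the 2 that rose were Igtp and Irgm2, neighbouring genes of the immunity-related GTPase family. Every F/R/C library lay below every MEF library for 36 members and above every one for 3, where 26.0% and 27.1% of all genes did so. Every F/R/C library lay below every MyoD library for 35 members and above every one for 2, against 23.2% and 26.6% of all genes. Both comparisons use the same 3 F/R/C libraries, so they are not independent of each other.

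**Figure D1:**
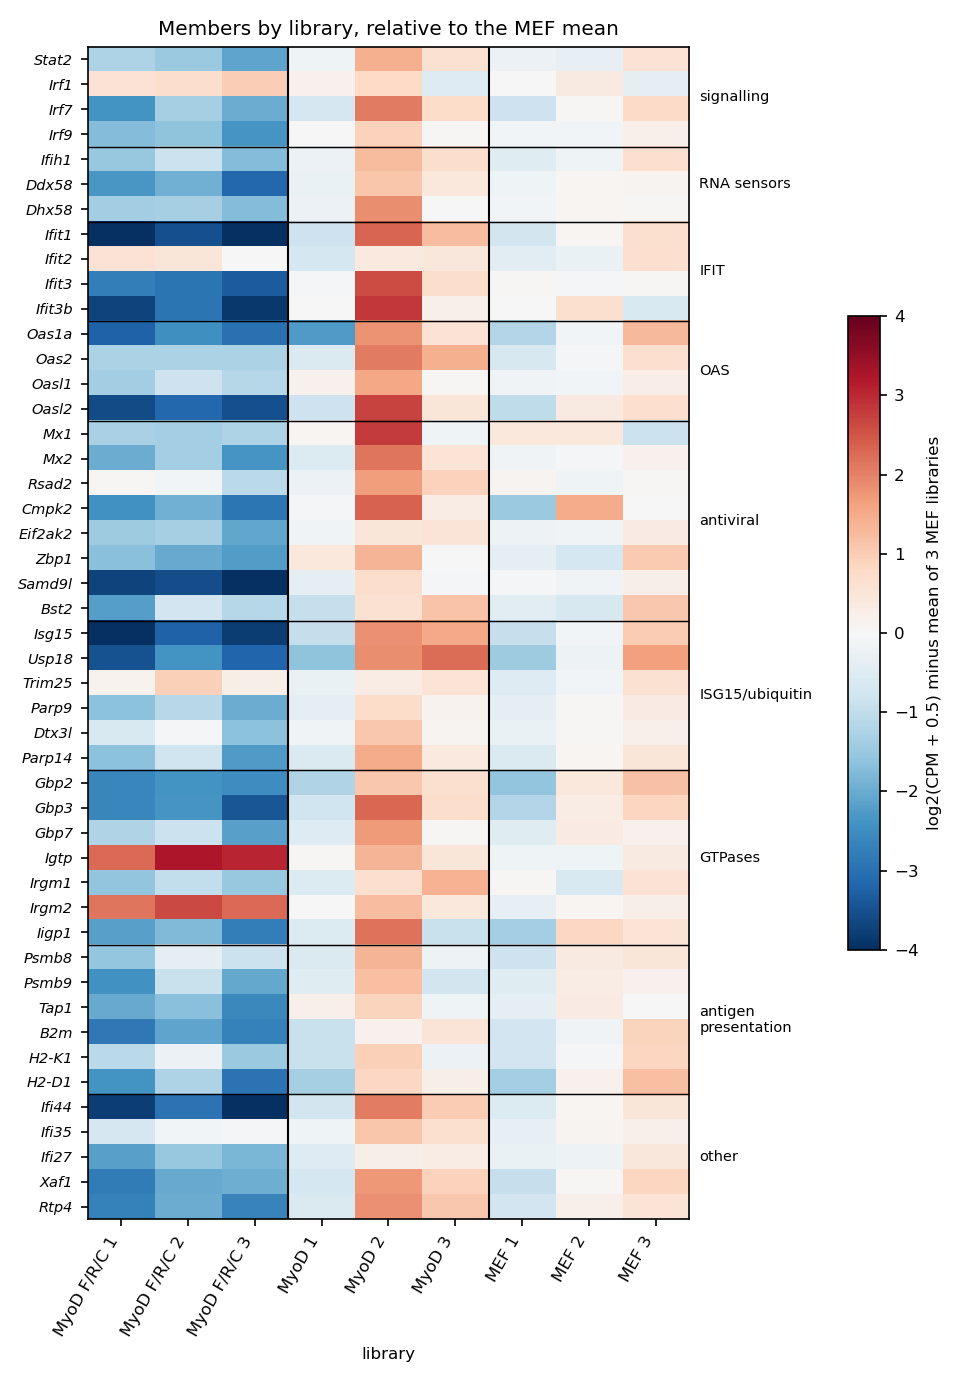
Level of the 47 genes in each library, as log2(CPM + 0.5) minus the mean of the 3 MEF libraries, with rows in order of role and libraries as columns. The F/R/C columns are mostly blue (lower); the 5 genes with a higher mean in F/R/C than in MEF are Irf1, Ifit2, Trim25, Igtp and Irgm2, and MyoD replicate 2 is the column with the most red (higher).

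The test was edgeR's quasi-likelihood F test with p-values adjusted by Benjamini and Hochberg over all genes tested, and a gene was called at an adjusted p under 0.05. Fold changes are log2 values ± SE. Leaving out single libraries moved the counts: against MEF, 17 members were called lower without F/R/C replicate 3, 19 without F/R/C replicate 1, 23 without MEF replicate 3 and 35 without MyoD replicate 2. Against MyoD libraries, 24 were called lower without F/R/C replicate 3 and 30 without MyoD replicate 2. The 2 increases remained under every one of these. The 19 calls against MEF that no single library ended were Irf9, Ddx58, Ifit1, Ifit3, Ifit3b, Oas2, Oasl2, Eif2ak2, Zbp1, Samd9l, Isg15, Parp9, Igtp, Irgm2, Tap1, B2m, Ifi44, Ifi27 and Rtp4. Against MyoD libraries, 26 of 37 calls remained without any single library. Equal replicate numbers deviated together only weakly in F/R/C and MEF libraries (correlations 0.101 to 0.151), and the main fit took no account of them. With the number as a block, 38 members were called lower than in MEF and 2 higher.

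**Figure D2:**
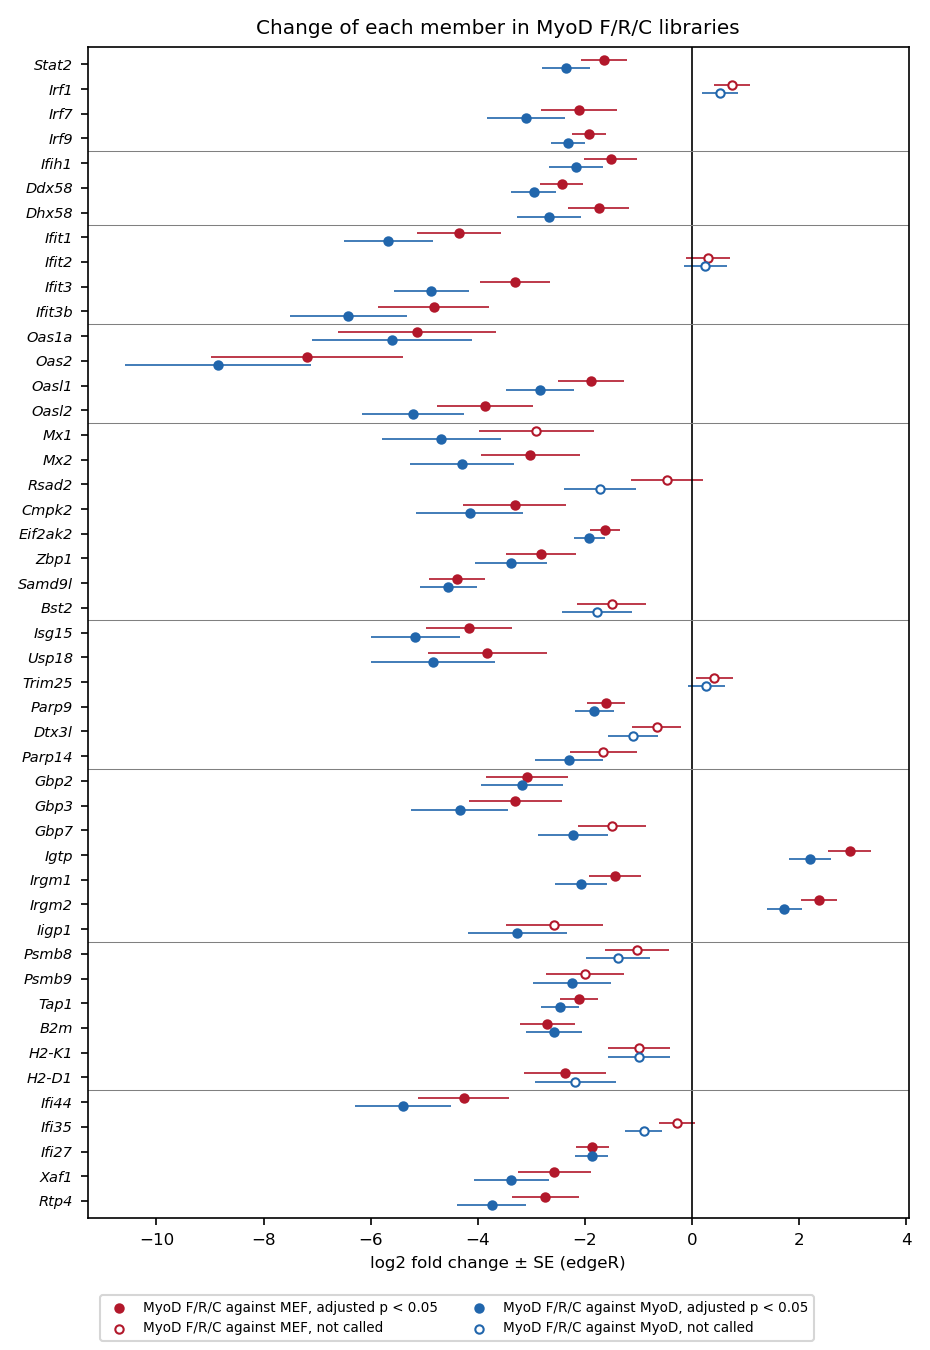
Log2 fold change ± SE (edgeR) of each of the 47 genes in F/R/C libraries against MEF (red) and against MyoD (blue), with filled points for an adjusted p under 0.05. Most points lie left of 0; Igtp and Irgm2 lie right of it, and the value drawn for Oas2, which had 0 counts in every F/R/C library, depends on the prior count of the fit.

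The transcription factors that carry the interferon signal to the nucleus fell, and Irf1 did not. Irf9, the DNA-binding subunit of the complex with STAT2 (ENSMUSG00000002325, chromosome 14), had 10.9, 12.0 and 6.87 CPM in F/R/C libraries, 37.2, 72.1 and 38.8 CPM in MyoD libraries and 34.98, 35.2 and 43.4 CPM in MEF libraries. All F/R/C values lay well below all others, and it fell against MEF (edgeR log2 fold change -1.93 ± 0.32, adjusted p = 0.00252) and against MyoD (edgeR log2 fold change -2.31 ± 0.32, adjusted p = 0.00176). Stat2, its partner, had 23.5, 19.4 and 12.5 CPM in F/R/C, 49.8, 148 and 85.7 CPM in MyoD and 46.7, 44.4 and 82.6 CPM in MEF libraries. The F/R/C values lay below all others, while MyoD and MEF values overlapped, and the decrease passed against MEF (edgeR log2 fold change -1.65 ± 0.43, adjusted p = 0.0175) and MyoD (edgeR log2 fold change -2.35 ± 0.44, adjusted p = 0.00547), but the call against MEF ended without F/R/C replicate 3 (adjusted p = 0.0661). Irf7, which amplifies type I interferon production, had 2.64, 6.02 and 3.65 CPM in F/R/C, 9.80, 68.5 and 27.2 CPM in MyoD and 8.79, 16.6 and 27.8 CPM in MEF libraries. Its decrease against MyoD (edgeR log2 fold change -3.10 ± 0.73, adjusted p = 0.0128) passed, a call that ended without F/R/C replicate 3 (adjusted p = 0.0531). Against MEF the call (edgeR log2 fold change -2.11 ± 0.71, adjusted p = 0.0433) ended without any 1 of MEF replicates 2 and 3 and the 3 F/R/C libraries, with an adjusted p of up to 0.128. Irf1, an early-response factor for interferon gamma and other signals, had 32.1, 35.01 and 42.3 CPM in F/R/C, 24.2, 37.5 and 14.6 CPM in MyoD and 21.7, 27.2 and 16.2 CPM in MEF libraries. All 3 F/R/C values lay above all MEF values but overlapped those of MyoD, and neither difference passed (edgeR log2 fold change 0.75 ± 0.34, adjusted p = 0.115 against MEF; edgeR log2 fold change 0.52 ± 0.34, adjusted p = 0.264 against MyoD). Exons of Irf7 overlap Phrf1 on the opposite strand and those of Irf9 overlap Rnf31 on the same strand, and whether counting used strand is not given in the sources used here.

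All 3 sensors of double-stranded RNA fell against both groups. Ddx58, which encodes RIG-I, had 10.6, 14.04 and 5.76 CPM in F/R/C, 45.2, 118 and 73.7 CPM in MyoD and 48.3, 57.7 and 58.9 CPM in MEF libraries. Every F/R/C library was at least 3 times below every other library, and the decrease passed against MEF (edgeR log2 fold change -2.44 ± 0.41, adjusted p = 0.00267) and MyoD (edgeR log2 fold change -2.96 ± 0.42, adjusted p = 0.00183). Ifih1, which encodes MDA5, had 3.15, 5.24 and 2.64 CPM in F/R/C, 8.28, 24.7 and 16.5 CPM in MyoD and 6.84, 8.61 and 16.1 CPM in MEF libraries. Ifih1 fell against MEF (edgeR log2 fold change -1.52 ± 0.49, adjusted p = 0.0396) and against MyoD (edgeR log2 fold change -2.16 ± 0.50, adjusted p = 0.0121). Dhx58, which encodes the related protein LGP2, had 1.64, 1.73 and 1.20 CPM in F/R/C, 4.30, 19.9 and 5.10 CPM in MyoD and 4.65, 5.47 and 5.26 CPM in MEF libraries. Dhx58 fell against MEF (edgeR log2 fold change -1.75 ± 0.58, adjusted p = 0.0418) and against MyoD (edgeR log2 fold change -2.68 ± 0.59, adjusted p = 0.0102). For both, F/R/C values lay below all others, MyoD and MEF values overlapped, and MyoD replicate 2 was the highest library. Their calls against MEF rested on single libraries. That of Ifih1 ended without any 1 of MEF replicates 2 and 3 and F/R/C replicates 1 and 3 (adjusted p up to 0.125), and that of Dhx58 without any 1 of the 6 libraries compared (up to 0.125). Exons of Dhx58 overlap those of Dhx58os on the opposite strand. Dhx58os reached 1.81 CPM in its highest library, near the F/R/C values of Dhx58.

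Among the IFIT genes, whose proteins bind viral RNA and block its translation, 3 of 4 fell by large factors and Ifit2 did not. Ifit1 (ENSMUSG00000034459, chromosome 19) had 1.22, 2.01 and 1.20 CPM in F/R/C, 15.8, 143 and 66.9 CPM in MyoD and 16.7, 29.9 and 44.3 CPM in MEF libraries. The decrease was 20.5-fold against MEF (edgeR log2 fold change -4.36 ± 0.78, adjusted p = 0.00348) and 51.0-fold against MyoD (edgeR log2 fold change -5.67 ± 0.83, adjusted p = 0.00209). Ifit3 had 2.10, 1.82 and 1.25 CPM in F/R/C, 16.6, 107 and 28.1 CPM in MyoD and 17.6, 16.3 and 17.5 CPM in MEF libraries, so its MEF values were close to each other while MyoD replicate 2 stood far above the other MyoD libraries. It fell against MEF (edgeR log2 fold change -3.31 ± 0.65, adjusted p = 0.00528) and MyoD (edgeR log2 fold change -4.87 ± 0.70, adjusted p = 0.00195). Ifit3b, a near-identical neighbour with which counts may be split, had 0.168, 0.638 and 0.0960 CPM in F/R/C, 8.06, 61.1 and 9.52 CPM in MyoD and 8.05, 12.8 and 5.17 CPM in MEF libraries. Ifit3b fell against MEF (edgeR log2 fold change -4.83 ± 1.03, adjusted p = 0.00737) and against MyoD (edgeR log2 fold change -6.42 ± 1.09, adjusted p = 0.00365). Summed over both, the level was 2.27, 2.46 and 1.34 CPM in F/R/C, 24.6, 168 and 37.7 CPM in MyoD and 25.6, 29.2 and 22.7 CPM in MEF libraries, so the split does not bear on the direction. Ifit2, from the same cluster, had 22.03, 20.4 and 14.6 CPM in F/R/C, 8.77, 19.3 and 20.1 CPM in MyoD and 10.7, 12.1 and 23.7 CPM in MEF libraries. Its groups overlapped, and it passed in neither comparison (edgeR log2 fold change 0.30 ± 0.40, adjusted p = 0.595 against MEF; edgeR log2 fold change 0.25 ± 0.40, adjusted p = 0.666 against MyoD).

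The oligoadenylate synthetase family, whose catalytic members make the messenger that switches on RNase L, fell as a whole, 4 of 4 in both comparisons. Of all genes tested, 18.1% fell against MEF and 16.1% against MyoD. Oas2 had 0 counts in all 3 F/R/C libraries, with 0.313, 4.57 and 2.74 CPM in MyoD and 0.279, 0.684 and 1.43 CPM in MEF libraries. Against the mean per-library floor of 0.136 CPM it was at least 5.89-fold lower in F/R/C than in MEF and at least 18.7-fold lower than in MyoD (edgeR adjusted p = 0.0199 and 0.0101), and the medians given above stay at -2.11 and -2.58 with Oas2 at these bounds. Oasl2 had 1.68, 2.46 and 1.78 CPM in F/R/C, 14.4, 169 and 36.5 CPM in MyoD and 12.5, 32.8 and 40.9 CPM in MEF libraries. It had the smallest adjusted p of the family (edgeR log2 fold change -3.86 ± 0.89, adjusted p = 0.0101 against MEF; edgeR log2 fold change -5.21 ± 0.95, adjusted p = 0.00476 against MyoD). Oas1a had 0, 0.365 and 0.0960 CPM in F/R/C, 0.492, 15.9 and 6.49 CPM in MyoD and 1.58, 3.90 and 11.1 CPM in MEF libraries. Its MyoD replicate 1 value was close to the highest F/R/C value, and its calls (edgeR log2 fold change -5.13 ± 1.47, adjusted p = 0.0245 against MEF; edgeR log2 fold change -5.60 ± 1.49, adjusted p = 0.0207 against MyoD) both ended without F/R/C replicate 1 or 3 and also without the highest library of the other group, MEF replicate 3 or MyoD replicate 2 (adjusted p up to 0.0903 against MEF and 0.0803 against MyoD). Oasl1 was low everywhere, with 0.210, 0.547 and 0.336 CPM in F/R/C, 1.57, 4.91 and 1.40 CPM in MyoD and 1.16, 1.21 and 1.71 CPM in MEF libraries. The decrease passed against MyoD (edgeR log2 fold change -2.84 ± 0.63, adjusted p = 0.0103), while its call against MEF (edgeR log2 fold change -1.89 ± 0.62, adjusted p = 0.0410) ended without any 1 of the 6 libraries compared (adjusted p up to 0.123).

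**Figure D3:**
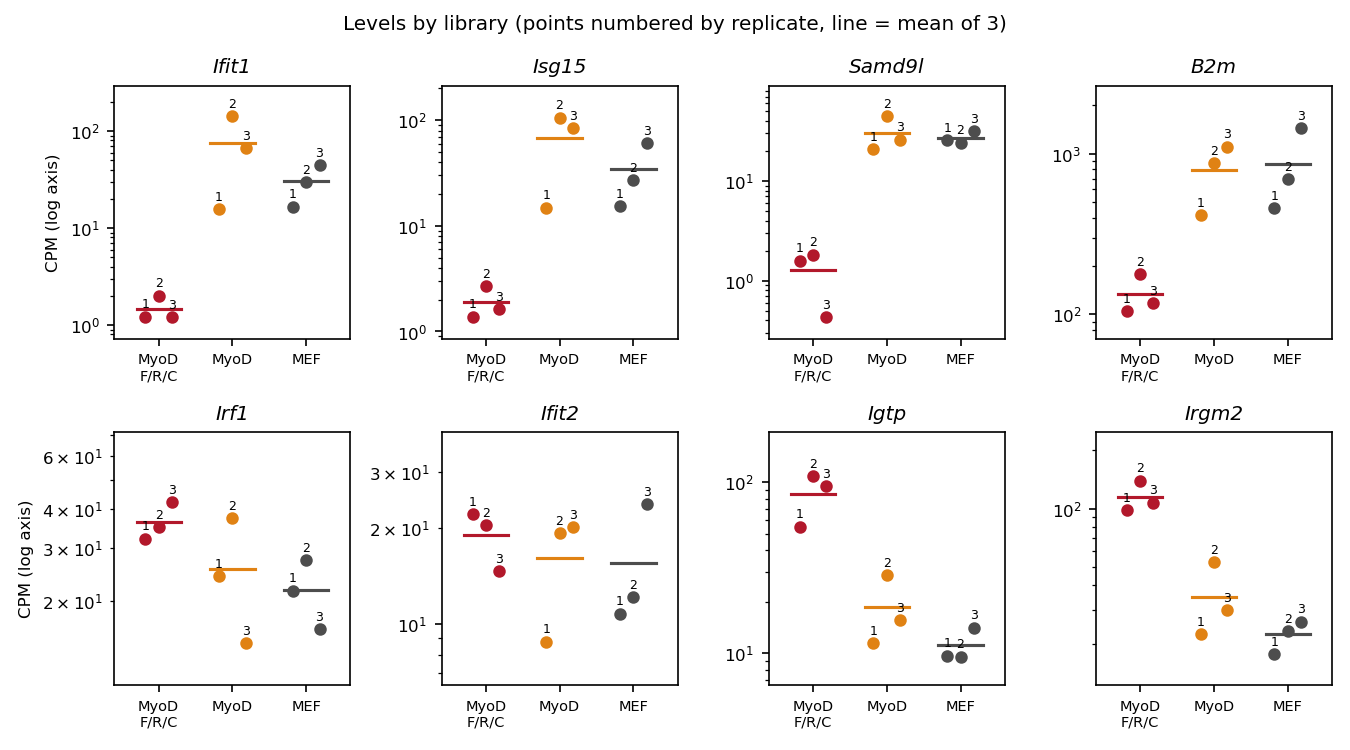
CPM (log axis) in each library of 4 members that fell (Ifit1, Isg15, Samd9l, B2m), 2 that did not pass (Irf1, Ifit2) and 2 that rose (Igtp, Irgm2), with points numbered by replicate and lines at the mean of 3. The F/R/C points lie below all others in the first 4 panels and above all others in the panels of Igtp and Irgm2.

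Of the 8 other antiviral effectors, 5 fell against MEF and 6 against MyoD, where 18.1% and 16.1% of all genes tested fell. They were led by Samd9l, a restriction factor for poxviruses in the mouse. Samd9l (ENSMUSG00000047735, chromosome 6) had 1.59, 1.82 and 0.432 CPM in F/R/C, 20.7, 44.3 and 25.9 CPM in MyoD and 25.4, 24.3 and 31.6 CPM in MEF libraries. It had the smallest adjusted p of the 47 genes in both comparisons (edgeR log2 fold change -4.39 ± 0.53, adjusted p = 0.000713 against MEF; edgeR log2 fold change -4.55 ± 0.53, adjusted p = 0.000989 against MyoD), and its MyoD and MEF values overlapped. Eif2ak2, which encodes the RNA-activated kinase PKR that halts translation, had 22.6, 24.2 and 14.2 CPM in F/R/C, 55.4, 86.8 and 87.9 CPM in MyoD and 53.4, 55.9 and 78.1 CPM in MEF libraries. Eif2ak2 fell against MEF (edgeR log2 fold change -1.62 ± 0.28, adjusted p = 0.00311) and against MyoD (edgeR log2 fold change -1.92 ± 0.29, adjusted p = 0.00222). Zbp1, a sensor of Z-form nucleic acid that triggers cell death, had 0.881, 0.593 and 0.432 CPM in F/R/C, 5.37, 10.8 and 3.85 CPM in MyoD and 2.93, 2.21 and 8.49 CPM in MEF libraries. Zbp1 fell against MEF (edgeR log2 fold change -2.82 ± 0.65, adjusted p = 0.0102) and against MyoD (edgeR log2 fold change -3.38 ± 0.67, adjusted p = 0.00647). These 3 genes kept their calls without any 1 library.

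The GTPases Mx1 and Mx2 restrict viruses in the nucleus and cytoplasm of mouse cells. Mx2 had 0.210, 0.593 and 0.0480 CPM in F/R/C, 1.43, 12.0 and 3.61 CPM in MyoD and 2.09, 2.21 and 2.72 CPM in MEF libraries. Mx2 fell against MyoD (edgeR log2 fold change -4.29 ± 0.97, adjusted p = 0.0107), while its call against MEF (edgeR log2 fold change -3.02 ± 0.93, adjusted p = 0.0323) ended without any 1 of the MEF libraries or F/R/C replicates 1 and 3 (adjusted p up to 0.100). Mx1 had 0.168, 0.137 and 0.192 CPM in F/R/C, 1.25, 10.9 and 0.962 CPM in MyoD and 1.72, 1.69 and 0.415 CPM in MEF libraries, with 1 MyoD library far above the rest. It fell against MyoD (edgeR log2 fold change -4.68 ± 1.11, adjusted p = 0.0132; adjusted p = 0.05001, no longer a call, without F/R/C replicate 3, and no call by DESeq2) and did not pass against MEF (edgeR log2 fold change -2.91 ± 1.07, adjusted p = 0.0603; 0.0470 with the replicate block). Cmpk2, a nucleotide kinase next to Rsad2, had 1.01, 1.595 and 0.576 CPM in F/R/C, 7.21, 40.4 and 9.24 CPM in MyoD and 2.37, 21.8 and 7.52 CPM in MEF libraries. It fell in both comparisons (edgeR log2 fold change -3.31 ± 0.96, adjusted p = 0.0256 against MEF; edgeR log2 fold change -4.15 ± 0.99, adjusted p = 0.0135 against MyoD), calls that ended without F/R/C replicate 3 (adjusted p = 0.0574 against MyoD), and against MEF also without F/R/C replicates 1 or 2 or MEF replicate 2 (up to 0.0938). Its neighbour Rsad2, which encodes viperin, had 1.22, 1.05 and 0.288 CPM in F/R/C, 0.940, 4.83 and 2.69 CPM in MyoD and 1.302, 1.01 and 1.25 CPM in MEF libraries, and its groups overlapped. It passed in neither comparison (edgeR log2 fold change -0.47 ± 0.67, adjusted p = 0.615 against MEF; edgeR log2 fold change -1.72 ± 0.68, adjusted p = 0.0802 against MyoD). Bst2, which encodes tetherin and holds budding virions at the cell surface, had 12.5, 34.6 and 26.9 CPM in F/R/C, 31.1, 90.8 and 132 CPM in MyoD and 43.6, 37.9 and 128 CPM in MEF libraries. F/R/C values lay below all MEF values, and the difference did not pass (edgeR log2 fold change -1.50 ± 0.65, adjusted p = 0.0987 against MEF, or 0.0264 with the replicate block; edgeR log2 fold change -1.78 ± 0.65, adjusted p = 0.0637 against MyoD).

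Of 6 genes of ISG15 conjugation, ubiquitination and ADP-ribosylation, 3 fell against MEF and 4 against MyoD, where 18.1% and 16.1% of all genes tested fell. Isg15, the ubiquitin-like modifier itself (ENSMUSG00000035692, chromosome 4), had 1.38, 2.69 and 1.63 CPM in F/R/C, 14.9, 106 and 84.4 CPM in MyoD and 15.4, 27.2 and 60.4 CPM in MEF libraries. Even the lowest MEF library was over 5 times the highest F/R/C library, and the decrease was 18.01-fold against MEF (edgeR log2 fold change -4.17 ± 0.80, adjusted p = 0.00459) and 35.9-fold against MyoD (edgeR log2 fold change -5.17 ± 0.83, adjusted p = 0.00300). Usp18, which removes ISG15 and damps receptor signalling, had 0.965, 2.64 and 1.34 CPM in F/R/C, 4.88, 60.05 and 76.7 CPM in MyoD and 5.63, 13.8 and 50.9 CPM in MEF libraries. Its replicate 1 libraries were the lowest of MyoD and of MEF. Its calls (edgeR log2 fold change -3.83 ± 1.11, adjusted p = 0.0257 against MEF; edgeR log2 fold change -4.83 ± 1.16, adjusted p = 0.0136 against MyoD) ended without F/R/C replicate 1 or 3, and against MEF also without F/R/C replicate 2 or MEF replicate 3 (adjusted p up to 0.0925 against MEF and 0.0588 against MyoD).

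Parp9 and Dtx3l encode partners in a ubiquitin ligase complex and overlap on opposite strands. Parp9 had 7.85, 11.5 and 6.10 CPM in F/R/C, 19.6, 42.9 and 27.9 CPM in MyoD and 19.2, 26.4 and 32.0 CPM in MEF libraries, and fell in both comparisons (edgeR log2 fold change -1.61 ± 0.36, adjusted p = 0.00905 against MEF; edgeR log2 fold change -1.83 ± 0.36, adjusted p = 0.00673 against MyoD). Dtx3l had 10.2, 15.4 and 4.66 CPM in F/R/C, 14.1, 33.8 and 16.98 CPM in MyoD and 13.0, 16.3 and 18.4 CPM in MEF libraries, with overlapping groups and no call (edgeR log2 fold change -0.66 ± 0.46, adjusted p = 0.290 against MEF; edgeR log2 fold change -1.10 ± 0.47, adjusted p = 0.0972 against MyoD). Parp14, an ADP-ribosyltransferase, had 2.64, 5.11 and 1.54 CPM in F/R/C, 6.09, 27.2 and 12.5 CPM in MyoD and 6.09, 9.86 and 13.3 CPM in MEF libraries. Parp14 fell against MyoD (edgeR log2 fold change -2.30 ± 0.64, adjusted p = 0.0236), a call that ended without F/R/C replicate 1 or 3 or MyoD replicate 2 (adjusted p up to 0.0819), and missed the threshold against MEF (edgeR log2 fold change -1.66 ± 0.62, adjusted p = 0.0652; 0.0259 with the replicate block). Trim25, the ubiquitin ligase of the RIG-I pathway, was the one gene of the group with positive values, 107, 187 and 114 CPM in F/R/C, 80.9, 118 and 141 CPM in MyoD and 68.1, 89.2 and 149 CPM in MEF libraries. The groups overlapped and no difference passed (edgeR log2 fold change 0.42 ± 0.35, adjusted p = 0.377 against MEF; edgeR log2 fold change 0.27 ± 0.35, adjusted p = 0.584 against MyoD).

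The interferon-inducible GTPases were split. Igtp and Irgm2 rose, the other 5 fell against MyoD, and 3 of those 5 fell against MEF. Igtp (ENSMUSG00000078853, chromosome 11, 58199556 to 58207591, GRCm38), which regulates GTPase loading on pathogen vacuoles, had 54.9, 108 and 94.3 CPM in F/R/C, 11.4, 28.6 and 15.7 CPM in MyoD and 9.68, 9.58 and 14.1 CPM in MEF libraries. The lowest F/R/C library was above the highest library of the other groups, and the increase was 7.70-fold against MEF (edgeR log2 fold change 2.95 ± 0.40, adjusted p = 0.00117) and 4.61-fold against MyoD (edgeR log2 fold change 2.21 ± 0.39, adjusted p = 0.00433). Irgm2 (chromosome 11, 58199618 to 58222782), a second regulator of the same family, had 97.9, 139.6 and 107 CPM in F/R/C, 22.3, 52.8 and 29.7 CPM in MyoD and 17.6, 23.3 and 26.0 CPM in MEF libraries. It rose 5.16-fold against MEF (edgeR log2 fold change 2.37 ± 0.34, adjusted p = 0.00134) and 3.29-fold against MyoD (edgeR log2 fold change 1.72 ± 0.33, adjusted p = 0.00567). Both calls remained without any 1 library and under every setting tried. The genes share exon sequence on the same strand through 1 transcript of Irgm2, Irgm2-201, whose estimated counts rounded to 0 in every library. Summed over both genes the level was 153, 247 and 201 CPM in F/R/C, 33.7, 81.4 and 45.4 CPM in MyoD and 27.3, 32.8 and 40.1 CPM in MEF libraries.

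Irgm1, another regulator of this family, lies elsewhere on chromosome 11 and went the other way. It had 12.7, 19.4 and 13.1 CPM in F/R/C, 26.2, 62.2 and 101 CPM in MyoD and 39.7, 25.3 and 57.3 CPM in MEF libraries, and fell against MyoD (edgeR log2 fold change -2.07 ± 0.49, adjusted p = 0.0129; 0.0531 without F/R/C replicate 3). Its call against MEF (edgeR log2 fold change -1.44 ± 0.48, adjusted p = 0.0437) ended without any 1 of MEF replicates 1 and 3, MyoD replicate 2 and the 3 F/R/C libraries (adjusted p up to 0.130). The guanylate-binding proteins Gbp2, Gbp3 and Gbp7, which coat and break pathogen vacuoles, are neighbours on chromosome 3. Gbp2 had 2.48, 2.92 and 2.69 CPM in F/R/C, 7.25, 37.8 and 27.8 CPM in MyoD and 5.58, 23.4 and 39.8 CPM in MEF libraries. Gbp2 fell against MEF (edgeR log2 fold change -3.09 ± 0.77, adjusted p = 0.0135) and against MyoD (edgeR log2 fold change -3.17 ± 0.77, adjusted p = 0.0142). Gbp3 had 1.80, 2.23 and 0.816 CPM in F/R/C, 7.65, 68.8 and 22.3 CPM in MyoD and 5.77, 16.9 and 25.4 CPM in MEF libraries. Gbp3 fell against MEF (edgeR log2 fold change -3.30 ± 0.87, adjusted p = 0.0169) and against MyoD (edgeR log2 fold change -4.34 ± 0.90, adjusted p = 0.00796). Without F/R/C replicate 3 the calls of both against MEF ended (adjusted p = 0.0528 for Gbp2 and 0.0674 for Gbp3), for Gbp3 also without F/R/C replicate 1, and that of Gbp2 against MyoD ended without F/R/C replicate 1 or 3 (up to 0.0549). Gbp7 had 3.11, 4.10 and 1.34 CPM in F/R/C, 5.37, 26.6 and 8.13 CPM in MyoD and 5.44, 9.90 and 8.81 CPM in MEF libraries. Against MyoD it fell (edgeR log2 fold change -2.23 ± 0.66, adjusted p = 0.0299), a call lost by leaving out MyoD replicate 2 or either of F/R/C replicates 1 and 3 (adjusted p up to 0.107), and did not pass against MEF (edgeR log2 fold change -1.50 ± 0.64, adjusted p = 0.0978; 0.0385 with the replicate block). Iigp1, an effector GTPase that disrupts the vacuole membrane, had 4.45, 6.15 and 2.78 CPM in F/R/C, 14.9, 102 and 11.8 CPM in MyoD and 8.33, 39.2 and 32.1 CPM in MEF libraries. It fell against MyoD (edgeR log2 fold change -3.26 ± 0.93, adjusted p = 0.0266; up to 0.0971 without MyoD replicate 2 or any 1 F/R/C library) and missed the threshold against MEF (edgeR log2 fold change -2.57 ± 0.91, adjusted p = 0.0519; 0.0254 with the replicate block), where 5 of the 7 other settings called it lower (0.00644 to 0.0569 over the 7).

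In antigen presentation, the shared light chain and the peptide transporter fell, and the heavy chains were less separated from the other groups. B2m, the light chain of every MHC class I molecule (ENSMUSG00000060802, chromosome 2), had 105, 177 and 118 CPM in F/R/C, 414, 872 and 1107 CPM in MyoD and 458, 694 and 1448 CPM in MEF libraries. Every F/R/C library was over 2 times below every other library, a decrease of 6.504-fold against MEF (edgeR log2 fold change -2.70 ± 0.52, adjusted p = 0.00464) and 5.98-fold against MyoD (edgeR log2 fold change -2.58 ± 0.52, adjusted p = 0.00690). On the per-length scale it was the most abundant of the 47 genes in MEF, with a mean TPM (transcripts-per-million) of 249 in F/R/C, 1920 TPM in MyoD and 2085 TPM in MEF libraries. Tap1, which pumps peptides into the endoplasmic reticulum, had 14.8, 19.0 and 9.80 CPM in F/R/C, 71.2, 116 and 54.8 CPM in MyoD and 48.1, 77.2 and 62.5 CPM in MEF libraries. Tap1 fell against MEF (edgeR log2 fold change -2.11 ± 0.35, adjusted p = 0.00258) and against MyoD (edgeR log2 fold change -2.47 ± 0.36, adjusted p = 0.00198). The heavy chain gene H2-D1 had 35.4, 77.9 and 23.7 CPM in F/R/C, 74.4, 327 and 221 CPM in MyoD and 71.6, 209 and 428 CPM in MEF libraries. Its replicate 1 libraries of MyoD and MEF were near the highest F/R/C value. It fell against MEF (edgeR log2 fold change -2.37 ± 0.76, adjusted p = 0.0377), a call that ended without MEF replicate 2 or 3 or F/R/C replicate 1 or 3 (adjusted p up to 0.124), and missed the threshold against MyoD (edgeR log2 fold change -2.18 ± 0.76, adjusted p = 0.0533), where 6 of the 7 other settings, all but DESeq2 size factors, called it lower (adjusted p from 0.00920 to 0.0554 over the 7). H2-K1 had 53.5, 98.1 and 40.4 CPM in F/R/C, 61.5, 223 and 97.5 CPM in MyoD and 66.7, 108 and 206 CPM in MEF libraries, with overlapping groups and no call (edgeR log2 fold change -0.99 ± 0.57, adjusted p = 0.203 against MEF; edgeR log2 fold change -0.99 ± 0.57, adjusted p = 0.209 against MyoD). Reads of these 2 similar genes may be split; their sum was 88.9, 176 and 64.1 CPM in F/R/C, 136, 550 and 318 CPM in MyoD and 138, 317 and 634 CPM in MEF libraries, still overlapping.

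The immunoproteasome subunits Psmb8 and Psmb9 replace constitutive subunits and change the peptides made. Psmb9 had 0.588, 2.598 and 0.912 CPM in F/R/C, 3.67, 12.8 and 2.98 CPM in MyoD and 3.63, 6.64 and 6.09 CPM in MEF libraries. It fell against MyoD (edgeR log2 fold change -2.24 ± 0.73, adjusted p = 0.0425), a call that ended without F/R/C replicate 1 or 3 or replicate 2 of MEF or of MyoD (adjusted p up to 0.163) and when the pair of groups was fitted alone or counts were scaled from TPM (up to 0.0572). Against MEF it missed the threshold (edgeR log2 fold change -1.99 ± 0.72, adjusted p = 0.0576; 0.00618 with the replicate block). Psmb8 had 4.07, 9.66 and 6.87 CPM in F/R/C, 8.50, 34.0 and 11.2 CPM in MyoD and 6.98, 16.7 and 18.1 CPM in MEF libraries, and passed in neither comparison (edgeR log2 fold change -1.02 ± 0.60, adjusted p = 0.206 against MEF, or 0.0425 with the replicate block; edgeR log2 fold change -1.38 ± 0.60, adjusted p = 0.106 against MyoD). Psmb9 and Tap1 overlap on opposite strands, with Tap1 much the higher. The 7 constitutive proteasome beta subunits, listed for comparison, had positive values throughout (median 0.72). Of the 7, 2 (Psmb7 and Psmb5) rose against MEF and 1 (Psmb7) against MyoD, where 19.5% and 17.8% of all genes rose. All 7 were highest in F/R/C replicate 3, where they summed to 1557 CPM, against 852 and 899 CPM in F/R/C replicates 1 and 2.

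The remaining members encode proteins of less settled function. Ifi44 had 0.713, 1.64 and 0.240 CPM in F/R/C, 9.35, 68.5 and 32.7 CPM in MyoD and 10.7, 16.99 and 22.5 CPM in MEF libraries. Ifi44 fell against MEF (edgeR log2 fold change -4.26 ± 0.85, adjusted p = 0.00554) and against MyoD (edgeR log2 fold change -5.40 ± 0.89, adjusted p = 0.00331). Ifi27 had 25.1, 40.5 and 32.4 CPM in F/R/C, 80.1, 137 and 143 CPM in MyoD and 95.7, 101 and 160.3 CPM in MEF libraries. Ifi27 fell against MEF (edgeR log2 fold change -1.86 ± 0.31, adjusted p = 0.00261) and against MyoD (edgeR log2 fold change -1.88 ± 0.31, adjusted p = 0.00337). Both fell with F/R/C values below all others, Ifi44 by a far larger factor. Rtp4, a chaperone for certain receptors, had 1.89, 3.37 and 1.92 CPM in F/R/C, 9.94, 54.3 and 32.0 CPM in MyoD and 8.652, 17.1 and 22.3 CPM in MEF libraries, and fell in both (edgeR log2 fold change -2.74 ± 0.62, adjusted p = 0.00954 against MEF; edgeR log2 fold change -3.74 ± 0.65, adjusted p = 0.00397 against MyoD). Xaf1, which promotes cell death, had 1.72, 3.282 and 3.46 CPM in F/R/C, 8.86, 50.6 and 28.5 CPM in MyoD and 7.58, 15.4 and 27.3 CPM in MEF libraries, and fell in both (edgeR log2 fold change -2.57 ± 0.68, adjusted p = 0.0177 against MEF; edgeR log2 fold change -3.38 ± 0.70, adjusted p = 0.00798 against MyoD), though not against MEF without F/R/C replicate 1 or 3 (adjusted p up to 0.0631). Ifi35 had 11.0, 16.3 and 17.05 CPM in F/R/C, 15.8, 39.1 and 27.7 CPM in MyoD and 14.1, 19.1 and 20.6 CPM in MEF libraries and passed in neither (edgeR log2 fold change -0.28 ± 0.34, adjusted p = 0.546 against MEF; edgeR log2 fold change -0.90 ± 0.34, adjusted p = 0.0722 against MyoD). Exons of Rtp4 overlap those of Gm45338 on the same strand.

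MyoD alone gave no call. Against MEF, 45 of the 47 genes had a positive log2 fold change (48.8% of all genes did), with a median of 0.65, but edgeR called 0 members and 0% of all genes. This fit did not use replicate numbers, although equal numbers of MEF and MyoD deviated together (correlations 0.632 to 0.729). It also called 0 of 24 sarcomere genes, of which 21 were higher in every MyoD library (median log2 fold change 3.53). The lack of calls therefore does not show equal levels. No member had its 3 MyoD libraries all above or all below the MEF libraries, where 4.4% of all genes lay above and 3.11% below. At an unadjusted p under 0.05, 1 member was higher and 0 lower, where 526 genes (3.35%) were higher and 206 (1.31%) lower; DESeq2 called 160 genes higher and 11 lower, and 0 members. That 1 member was Ifit3 (edgeR log2 fold change 1.56 ± 0.60, adjusted p = 0.925). Igtp (edgeR log2 fold change 0.74 ± 0.38, adjusted p = 1) and Irgm2 (edgeR log2 fold change 0.65 ± 0.32, adjusted p = 1) had positive values as well. The 2 genes with negative values were B2m (edgeR log2 fold change -0.12 ± 0.49, adjusted p = 1) and H2-D1 (edgeR log2 fold change -0.19 ± 0.72, adjusted p = 1), and both turned positive without MEF replicate 3 or MyoD replicate 1.

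MyoD replicate 2 was known to be high when the 47 genes were set out for a description by library, so its values are given as a description and support nothing further. It was the highest of the 9 libraries for 34 of the 47 genes, where 10.3% of all genes tested were highest there. It was at least 2 times both other MyoD libraries for 20 of 47 members (42.6%), against 5.08% of all genes, and 8.71 times for Mx1. Without MyoD replicate 2, the median log2 fold change against MEF was 0.07. The median was between 0.45 and 1.00 without any 1 of the other libraries. In libraries of equal number, 27 members were higher in MyoD replicate 1 than in MEF replicate 1, 47 of 47 in MyoD replicate 2 than in MEF replicate 2, and 22 in MyoD replicate 3 than in MEF replicate 3. Of all genes tested, 47.8%, 47.1% and 49.6% were higher in the MyoD library of these pairs. The median log2 ratios of the members were 0.05, 1.38 and -0.04. Of 59 interferon-induced genes that are not members, 32 were also highest in MyoD replicate 2.

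**Figure D4:**
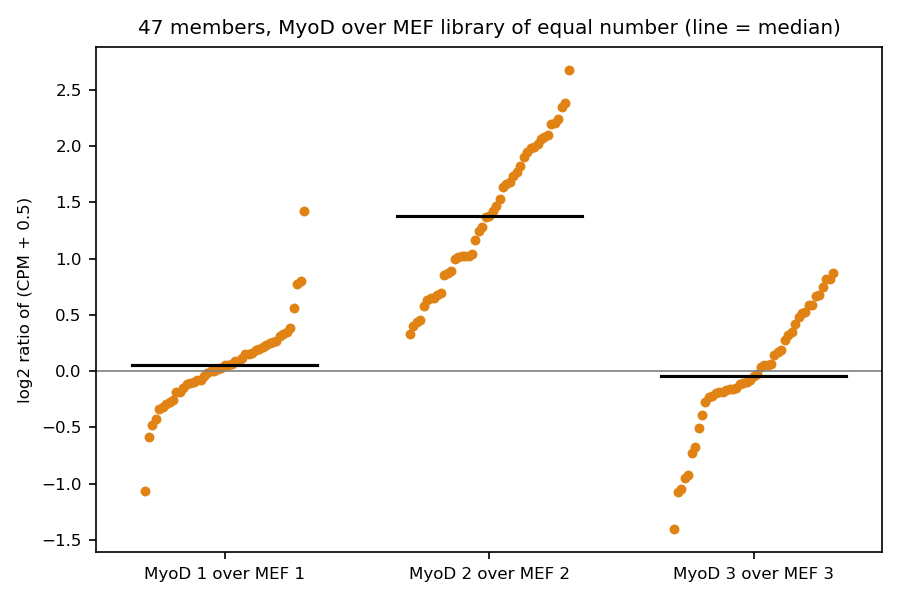
Log2 ratio of CPM + 0.5 in each MyoD library over the MEF library of equal number for the 47 genes, sorted within each pair, with a line at the median. All points lie above 0 in the pair of replicates 2, and the pairs of replicates 1 and 3 have medians of 0.05 and -0.04.

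The summed level of the 47 genes varied among untreated cells too. It was 713, 1142 and 744 CPM in F/R/C libraries, 1361, 4016 and 3034 CPM in MyoD libraries and 1385, 2064 and 3603 CPM in MEF libraries. All F/R/C sums lay below all others. A few abundant genes weigh heavily in these sums. In MEF replicate 3, the 6 antigen presentation genes held 2169 CPM, of which B2m alone held 1448 CPM. MEF replicate 3, the library with muscle transcripts, was the highest MEF library for 36 members (35.7% of all genes tested), and F/R/C replicate 2 the highest F/R/C library for 37 (30.4% of all genes). Replicate 1 was the highest MyoD library for 0 members (29.8% of all genes) and the highest MEF library for 3 (35.4% of all genes). Without MEF replicate 3, the median of members in F/R/C against MEF was -1.87, with 23 called lower. The 20 macrophage and dendritic cell markers summed to 40.0 to 67.6 CPM in F/R/C, 11.7 to 36.6 CPM in MyoD and 7.37 to 23.4 CPM in MEF libraries. Of the 8 that were tested, 4 rose in F/R/C against MEF (Itgam, Fcer1g, Laptm5 and Cd68) and 0 fell, where 19.5% of all genes tested rose. Of the 8, 5 had positive values and 3 negative values, down to -1.86, with a median of 1.86. C1qa, Adgre1 and Tyrobp, 3 of the 12 not tested, had 0 counts in every F/R/C library, in MyoD replicates 2 and 3 and in MEF replicates 2 and 3. Replicate 1 of MyoD had 0.806, 0.716 and 0.671 CPM of these 3 genes and replicate 1 of MEF had 0.326, 0.279 and 0.326 CPM. Ptprc, the pan-leukocyte marker, was at most 0.224 CPM in any library. The 15 T, B and NK cell markers summed to 4.65 to 7.22 CPM in F/R/C, 0.582 to 1.92 CPM in MyoD and 0.523 to 1.11 CPM in MEF libraries. Only 2 of the 15 were tested. Against MEF, 1 rose (edgeR log2 fold change 9.50, adjusted p = 0.00702) and the other had -0.05, so the sum shows no general rise of the list. The 10 endothelial markers summed to 13.4 to 19.3 CPM in F/R/C, 8.32 to 9.82 CPM in MyoD and 7.38 to 15.7 CPM in MEF libraries. Of the 5 tested, 1 rose and 1 fell against MEF. These shares are near the 19.5% and 18.1% of all genes tested, so they are no result about the list. What part these markers had in the results was not tested.

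The ligands of the pathway were nearly silent in all groups. Of 21 interferon genes, 8 had any count and 0 passed the filter on low counts. Ifnb1 had 0.0456 CPM in F/R/C replicate 2 and 0 in the other 8 libraries. Ifng, the gamma interferon gene, had 0.168, 0.228 and 0.336 CPM in F/R/C libraries and 0 counts in the MyoD and MEF libraries. These values are near the floor, and Ifng was not tested. The 21 genes together summed to 0.294 to 0.384 CPM in F/R/C libraries. Their sums were 0.0962 to 0.582 CPM in MyoD and 0.0930 to 0.282 CPM in MEF libraries, so the groups overlapped. Of 9 receptor and kinase genes tested, 4 fell against MEF and 0 rose, with a median of -0.66, where 18.1% of all genes fell. Against MyoD, 2 of the 9 fell and 0 rose, with a median of -0.55. That share is near the 16.1% of all genes that fell there. Of the 4 that fell against MEF, 3 are the receptor chains Ifngr2 (edgeR log2 fold change -0.95 ± 0.25, adjusted p = 0.0184) and Ifnar1 (-0.76 ± 0.21, adjusted p = 0.0204) and the kinase Jak1 (-0.91 ± 0.26, adjusted p = 0.0242).

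Among 13 tested genes of nucleic acid sensing, Myd88 (-1.28 ± 0.24, edgeR adjusted p = 0.00416) and Tlr3 (-2.06 ± 0.44, adjusted p = 0.00717) fell against MEF and Irf5 rose (2.56 ± 0.62, adjusted p = 0.0122). Of 10 negative regulators, 2 rose (Pias4 and Ptpn6) and 2 fell (Adar and Socs1). For both lists these shares are near or below those of all genes tested, 19.5% higher and 18.1% lower, so they are no result about the lists. Of 55 tested interferon-induced genes outside the 47, 25 fell and 6 rose against MEF, with a median of -1.62. Plscr1 fell (-3.44 ± 0.52, edgeR adjusted p = 0.00170), and Gbp6 of the same list rose (4.54 ± 0.71, adjusted p = 0.00195). Of 22 other antigen presentation genes, 8 fell and 1 rose, with a median of -1.24. Erap1, which trims peptides, fell (-1.26 ± 0.23, edgeR adjusted p = 0.00341), and so did the class I loading factors Pdia3 (-1.41 ± 0.25, adjusted p = 0.00344) and Tapbp (-1.99 ± 0.39, adjusted p = 0.00507). The 1 that rose was H2-Ab1, a class II chain (3.88 ± 0.72, adjusted p = 0.00407), with 6.13, 6.70 and 7.87 CPM in F/R/C, 0.134, 0.453 and 1.11 CPM in MyoD and 0.326, 0.282 and 0.784 CPM in MEF libraries.

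**Figure D5:**
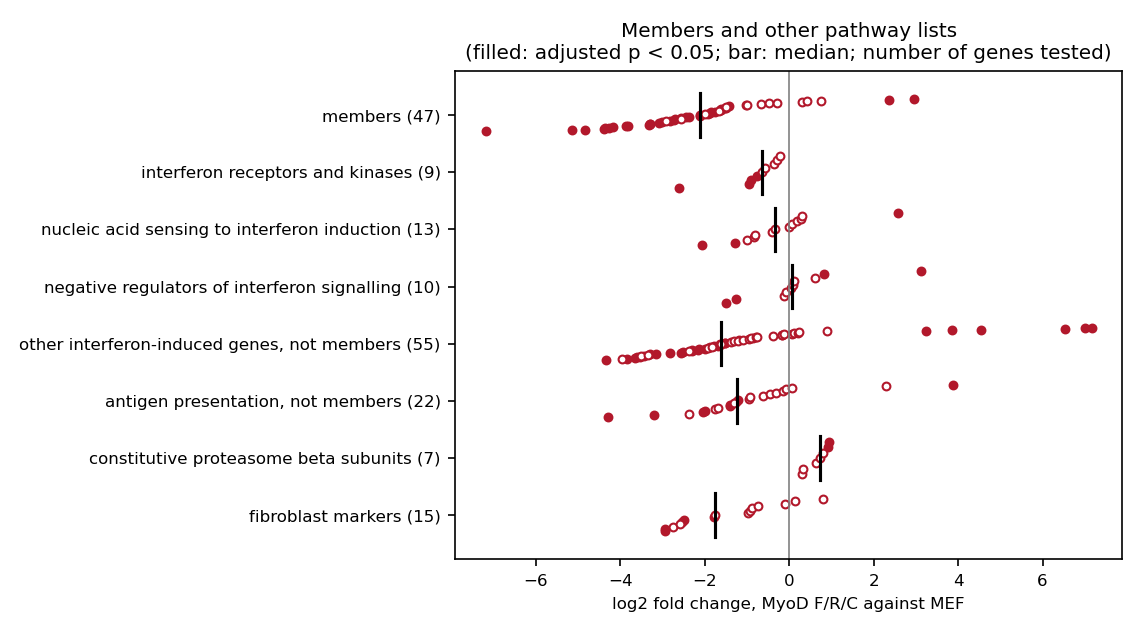
Log2 fold change in F/R/C against MEF libraries for the 47 genes and the other pathway lists, with filled points for an adjusted p under 0.05, a bar at the median and the number of genes tested in brackets. The 47 genes and the other interferon-induced genes lie mostly left of 0, each with a few points far to the right.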

How the data were processed

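The deposited files give, per library and transcript, the estimated counts, TPM and effective length that kallisto writes. Per the submitters' processing notes, the authors used bcl2fastq 2.19, Trimmomatic 0.36, kallisto 0.44 and edgeR 3.28 with GRCm38.p6; the role of edgeR, the annotation release and the use of strand are not given in the sources used here. Per the labels' protocols the libraries came from a stranded kit for polyadenylated RNA. The authors' estimated counts were not normalized, and the deposited TPM values (transcripts-per-million) are scaled by the deposited effective length.

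Estimated counts were summed per gene over the 121104 transcripts found in the GENCODE annotation of GRCm38 and rounded to whole numbers; 739 transcripts were not found and held 0.200% to 0.494% of counts. Genes were kept by edgeR's filter (minimum count 10, minimum total count 15), scaled by TMM and tested in 1 fit over all 9 libraries with edgeR 4.0.16 in R 4.3.3 (quasi-likelihood F test, two-sided, adjusted after Benjamini and Hochberg over 15714 genes). CPM (counts-per-million) is over the counts of tested genes, with the TMM factor. The 47 genes and the other lists were chosen with earlier results of these data known, and all 47 are described; in MyoD against MEF, genes are named where the unadjusted p is smallest or the value is negative. One result in the pathway lists is not reported here. Alternatives were DESeq2 1.42.0, other scalings and filters, the 2 groups alone and libraries left out. Equal replicate numbers deviated together between MEF and MyoD (correlations 0.632 to 0.729). Their correlations were lower between MEF and F/R/C (0.101 to 0.151) and between MyoD and F/R/C (0.0837 to 0.164). The main fit took no account of the numbers in any comparison, and a fit with the number as a block was among the alternatives.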

Additional observations from a re-analysis of the deposited data

How the results depend on the processing

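The direction of the members' median and the 2 increases, Igtp and Irgm2, were the same under every setting tried in both F/R/C comparisons. The number of members called lower moved most with libraries. Leaving out 1 library gave 17 to 35 members lower against MEF (19 without F/R/C replicate 1, 17 without F/R/C replicate 3) and 24 to 39 against MyoD, with medians of -2.50 to -1.87 and -2.90 to -2.04. It gave 2168 to 3260 genes higher and 2065 to 3102 lower against MEF, and 1778 to 2756 higher and 1744 to 2819 lower against MyoD, the 1778 without MyoD replicate 2. Leaving out replicate 2 of every group gave 14 members lower, 906 genes higher and 656 lower against MEF, and 8 members, 291 genes higher and 321 lower against MyoD; fewer libraries then enter each group. For MyoD against MEF, DESeq2 called 160 genes higher and 11 lower, the fit with no filter 10 and 1, the fit with the replicate block 13 higher, and leaving out 1 library 0 to 158 higher and 0 to 3 lower, the highest counts being those without MEF replicate 3; members called stayed at 0. The members' median there was 0.07 to 1.00 over libraries left out. Among single genes, values with no call changed sign: in F/R/C against MyoD, Ifit2 to -0.054 without MyoD replicate 1 (up to 0.43 without another library) and Trim25 to -0.032 without F/R/C replicate 2 and -0.037 without replicate 2 of every group (up to 0.45), and in MyoD against MEF, B2m to 0.49 and H2-D1 to 0.58 without MEF replicate 3, and to 0.19 and 0.21 without MyoD replicate 1 (down to -0.43 and -0.71 under others). The cause of these changes was not tested. Scaling by total counts alone moved the median of all genes by -0.19 in F/R/C against MyoD and gave 2295 genes higher and 3119 lower, where TMM gave 2796 and 2531; relative to that shift the members' median was little changed, and 38 were called lower. With the replicate block, Bst2, Psmb8, H2-D1 and Ifi35 were also called lower against MyoD (edgeR adjusted p = 0.0172, 0.0237, 0.0341 and 0.0201). No source shared by equal numbers is stated for any group. Against MEF, 38 members were called lower with the block. Other settings also called members lower that the report gives as not called: Parp14 and Psmb9 against MEF by DESeq2 and with the 2 groups alone, Gbp7 against MEF with the 2 groups alone, Rsad2 and Bst2 against MyoD by DESeq2, Bst2 there also with total counts and with the 2 groups alone, and Ifi35 with total counts. The call of Irf1 as higher than in MEF came only when the 2 groups were fitted alone (adjusted p = 0.0447). The calls of Dhx58 and Oasl1 against MEF ended with counts scaled from TPM (adjusted p up to 0.152 and 0.286), that of Oasl1 also with no filter, and that of Oasl1 against MyoD with counts scaled from TPM (0.0633).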

Other observations

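The rise of Igtp and Irgm2 had a counterpart among GTPase genes outside the 47, picked here after their values were seen. The 6 guanylate-binding protein genes of chromosome 5 (Gbp4, Gbp6, Gbp8, Gbp9, Gbp10 and Gbp11, 105014150 to 105346472, GRCm38) summed to 269, 343 and 399 CPM in F/R/C libraries, 12.1, 49.5 and 22.9 CPM in MyoD libraries and 4.0003, 13.2 and 25.9 CPM in MEF libraries. Every F/R/C sum was above every other. All 6 were called higher in F/R/C than in MEF by edgeR. They are the same 6 that rose among the 55 tested interferon-induced genes outside the 47, so they add no further genes to that count. Gbp9 and Gbp6, the 2 with counts in every library, had log2 fold changes of 3.24 ± 0.80 (edgeR adjusted p = 0.0131) and 4.54 ± 0.71 (adjusted p = 0.00195). These genes are close paralogs between which counts may be split, so the sum is the firmer value. The paralogs on chromosome 3 did not follow: Gbp2 and Gbp3 fell against MEF, and Gbp7 and Gbp5 did not pass (-0.77 ± 0.99, adjusted p = 0.571 for Gbp5).

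Within 250 kb of the chromosome 5 genes, 1 of 4 other tested genes was called higher and 1 lower against MEF. The higher gene, Gm43302 (105214907 to 105293695), overlaps Gbp6 and Gbp10 on the same strand. It lies inside the cluster and is no separate neighbour. The lower gene was Lrrc8c. Within 250 kb of Igtp and Irgm2, 2 of 9 others were higher and 0 lower, and within 250 kb of the chromosome 3 genes 2 of 4 were higher and 0 lower. Over all tested genes 19.5% were higher and 18.1% lower.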
